A study of Mus musculus with 3 samples.

Results

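The 8 genes described here are the embryonic globins Hbb-bh1, Hbb-y and Hba-x, the adult-type alpha globin Hba-a1, the erythroid transcription factors Klf1 and Gata1, the haem synthesis enzyme Alas2 and the erythropoietin receptor Epor. They were chosen by name as genes of red cells, and every probe matched to them by RefSeq accession was used. They had 9 probes among the 41153 probes used, and all 8 were among the 13270 genes kept for testing. Each of the 9 probes was well above background on all 6 arrays.

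The RNA came from gonads of male mouse embryos of the MCH line with the genotype Cyp26b1-/-, which lack the cytochrome P450 that breaks down retinoic acid. All groups share this genotype, and arrays of a control genotype were not analysed here. The groups are E12.5, E13.5 and E14.5 (days of embryonic development), with 2 arrays each that the series calls biological duplicates. Whether an array holds RNA of 1 embryo or of a pool is not given in the sources used here.

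Red cells carry oxygen on haemoglobin, which pairs alpha-type with beta-type globin chains around haem. Primitive red cells arise in the yolk sac and make embryonic globins, and they enter the circulation before the definitive red cells of the fetal liver, which make adult-type globins. A dissected gonad holds blood in its vessels, so its RNA includes transcripts of circulating red cells. In whole tissue, fewer cells of a type and less RNA per cell cannot be told apart.

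The stretches upstream of the start of 4 globin genes and of Klf1 are shown because these genes moved in different directions, and because the motif families they are known for can be read in them. Each is the 250 bases before the gene's start in RefSeq (build GRCm38.p6), 5′ to 3′ along the gene. Capitals mark CACCC, the box bound by Klf1 and related factors; GATAA, the core bound by GATA factors; CCAAT, the CCAAT box; and TATAA, the TATA box, on either strand.
Hbb-y, chr7:103853208-103853457, minus strand: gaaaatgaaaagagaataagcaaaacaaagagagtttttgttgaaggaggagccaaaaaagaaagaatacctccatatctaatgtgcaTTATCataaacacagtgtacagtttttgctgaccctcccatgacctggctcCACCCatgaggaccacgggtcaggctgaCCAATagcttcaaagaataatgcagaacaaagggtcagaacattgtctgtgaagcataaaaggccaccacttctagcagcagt
Hba-x, chr11:32276350-32276599, plus strand: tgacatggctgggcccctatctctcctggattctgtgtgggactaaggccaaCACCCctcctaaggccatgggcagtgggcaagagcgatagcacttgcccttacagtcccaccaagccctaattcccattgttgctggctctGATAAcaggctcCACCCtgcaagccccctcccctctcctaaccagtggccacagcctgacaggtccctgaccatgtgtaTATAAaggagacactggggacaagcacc
Hba-a1, chr11:32283422-32283671, plus strand: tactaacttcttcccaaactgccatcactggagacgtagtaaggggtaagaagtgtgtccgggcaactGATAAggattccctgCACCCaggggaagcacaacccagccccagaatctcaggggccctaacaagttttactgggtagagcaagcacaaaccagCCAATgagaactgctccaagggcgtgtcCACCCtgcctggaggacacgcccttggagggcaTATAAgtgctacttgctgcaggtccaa
Hbb-bt, chr7:103813924-103814173, minus strand: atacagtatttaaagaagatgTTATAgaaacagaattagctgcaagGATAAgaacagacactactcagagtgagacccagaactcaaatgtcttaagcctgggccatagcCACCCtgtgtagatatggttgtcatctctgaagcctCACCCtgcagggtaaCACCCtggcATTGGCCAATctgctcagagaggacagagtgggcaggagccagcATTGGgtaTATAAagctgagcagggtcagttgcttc
Klf1, chr8:84901732-84901981, plus strand: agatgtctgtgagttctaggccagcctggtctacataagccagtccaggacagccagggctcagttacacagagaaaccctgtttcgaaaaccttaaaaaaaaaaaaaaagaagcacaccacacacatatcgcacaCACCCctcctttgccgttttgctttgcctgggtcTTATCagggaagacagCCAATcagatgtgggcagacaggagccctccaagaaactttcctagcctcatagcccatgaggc

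Of the 8 genes, 7 had such an entry, and Hbb-bh1 had none. Among 32851 promoters of the same length, 52.0% held CACCC on either strand, 33.8% CCAAT, 22.6% GATAA and 22.8% TATAA, and 0.968% held all 4. No 2 of the matches overlapped in the 5 stretches shown. The stretches of Hba-a1 and of the adult-type beta globin Hbb-bt held all 4 motifs, with a TATAA that began 27 and 28 bases before the start. The stretch of Hba-x held TATAA, also 28 bases before the start, GATAA and 2 copies of CACCC, but no CCAAT. The stretches of Hbb-y and Klf1 held 1 CACCC box, 1 CCAAT box and 1 GATAA on the reverse strand, but no TATAA. These are exact matches of letters in this window. Variants of a motif, such as other forms of a TATA box, were not searched for, and binding was not measured.

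Levels are log2 signals minus the array's 75th percentile, so 0 marks a probe at that percentile. Such a level follows a probe's own response to its target and is compared only between stages, not between genes. A gene is called higher or lower where limma's adjusted p was under 0.05. The fit covered all 13270 genes and all 6 arrays. The slide that carried the E12.5 pair carried neither later stage, and by the file headers it had another scan date. In comparisons with E12.5, stage, slide and scan date therefore cannot be told apart. The E13.5 and E14.5 arrays shared the other slide and its scan date. On the arrays, 65.9% to 70.8% of spots exceeded background clearly, and no spot reached saturation. Whether the brightest probes still respond in proportion to their target was not tested. Cyp26b1 itself was well above background on all 6 arrays, between 3.78 and 4.92, and whether its probe lies in the deleted part is not given in the sources used here.

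Over the window from E12.5 to E14.5 the 3 embryonic globins and Klf1 fell, Hba-a1 rose slightly, and Gata1, Alas2 and Epor did not pass the test. That is 5 of 8 genes called, against 46.3% of all genes tested, of which 4 were lower, against 20.8%, and 1 higher, against 25.5%. From E12.5 to E13.5, Hbb-bh1 and Klf1 were called lower and none of the 8 higher, where 31.7% of all genes were called, 13.3% lower and 18.4% higher. From E13.5 to E14.5 none of the 8 was called, where 0.0528% of all genes were (0.0452% higher and 0.00754% lower), that is 7 genes by limma, beside 2439 genes at an unadjusted p under 0.05. Median scaling of the arrays in place of the 75th percentile moved the median change of all genes between E12.5 and E14.5 from 0.03 to -0.13, and the share of called genes that were higher from 55.2% to 39.5%. From E12.5 to E13.5 that share moved from 58.0% to 47.3%. The falls below are far larger than this shift, while the change of Hba-a1 is closer to it in size. The 75th percentile signal itself was 1841.96 and 1436.32 on the E12.5 arrays and 996.9 and 1134.92 on the E14.5 arrays. The small rise of Hba-a1 is relative to this lower signal, and a rise of its unscaled signal is not shown.

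**Figure D1:**
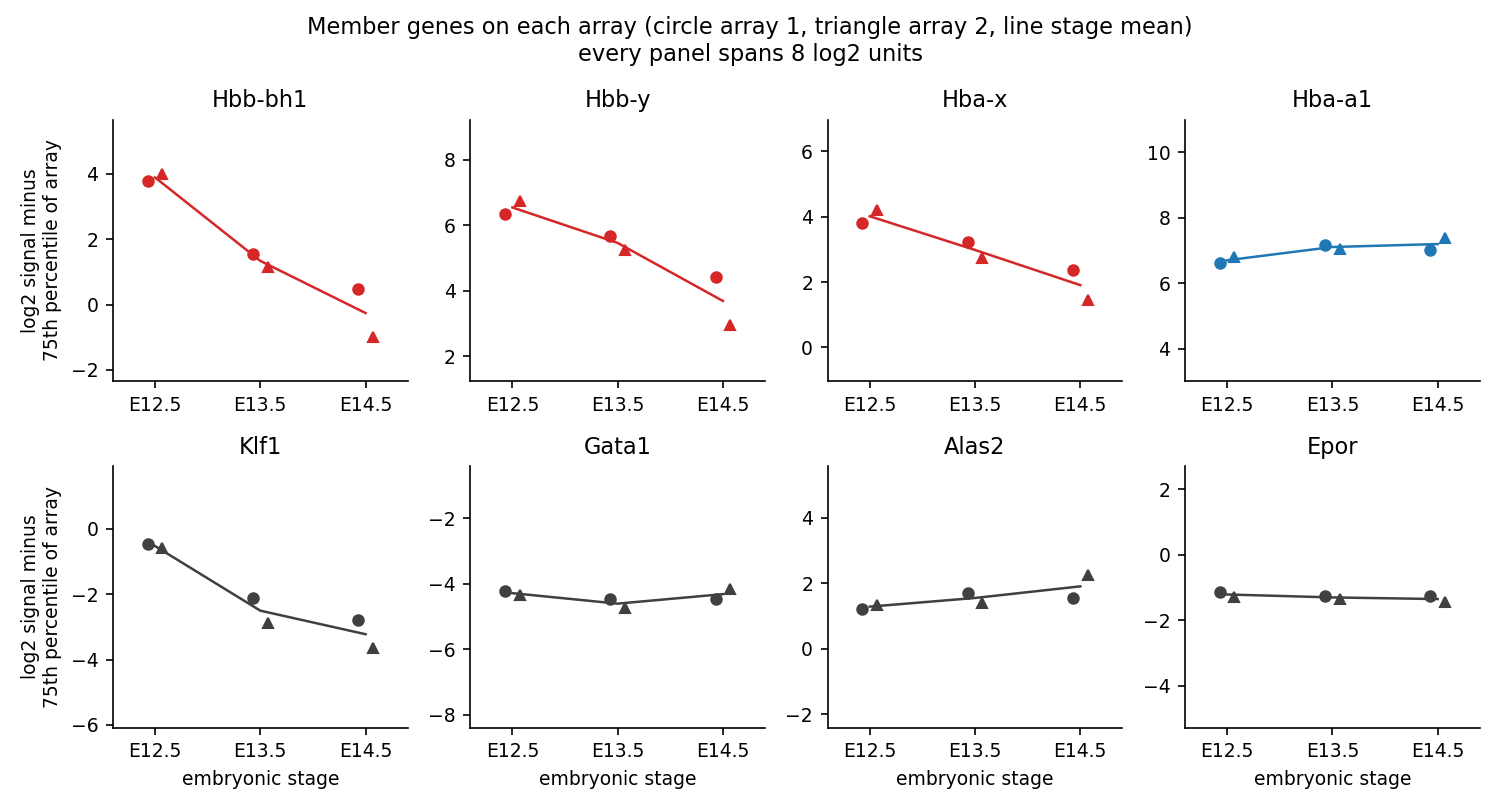
Level of each of the 8 genes (vertical axis, log2 signal minus the array's 75th percentile) at E12.5, E13.5 and E14.5 (horizontal axis). Circles and triangles are the 2 arrays of a stage, lines join stage means, and every panel spans the same height. The 3 embryonic globins (red) and Klf1 step down, Hba-a1 (blue) lies between 6.61 and 7.38 throughout, and Gata1, Alas2 and Epor, which were not called, lie within -4.74 to -4.17, 1.23 to 2.27 and -1.44 to -1.13.

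Hbb-bh1 encodes the beta-h1 chain of embryonic haemoglobin, made in primitive red cells. Its level was 3.77 and 4.0 on the E12.5 arrays, 1.53 and 1.14 on the E13.5 arrays and 0.46 and -0.98 on the E14.5 arrays. The 3 stages did not overlap, and the second E14.5 array lay well below the first. The stage means were 3.89 ± 0.17 (SD, n = 2), 1.33 ± 0.28 and -0.26 ± 1.02. Its level fell by 2.55 (log2; SE 0.45) from E12.5 to E13.5, a 5.87-fold decrease (limma, adjusted p = 0.0112). The change from E13.5 to E14.5 was -1.59 (SE 0.45) and did not pass the test (limma, adjusted p = 0.17). Over both days the fall was 17.7-fold, a change of -4.15 (SE 0.45, limma, adjusted p = 0.00162), which ranked 9 from the largest fall among 13270 genes. Without the second E14.5 array the changes were -3.42 over both days (limma, adjusted p = 0.00304) and -0.87 over the second day (limma, adjusted p = 0.331).

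The call for the first day was lost without the second E12.5 array (limma, -2.43, adjusted p = 0.0537) and without the second E13.5 array (limma, -2.36, adjusted p = 0.0588). A second Hbb-bh1 probe, A_52_P305876, gave 3.72 and 3.79 on the E12.5 arrays, 0.98 and 0.05 on the E13.5 pair and -0.67 and -2.0 on the E14.5 pair. It had the same order of stages and of arrays within the later stages as the brighter probe, A_51_P179672. With all single probes tested, its change from E12.5 to E14.5 was -5.09 (limma, adjusted p = 0.00218), beside -4.15 for the brighter one (limma, adjusted p = 0.00297).

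Hbb-y encodes the epsilon-y chain, the other embryonic beta-type globin. Its level was 6.34 and 6.76 on the E12.5 arrays, 5.69 and 5.24 on the E13.5 pair and 4.42 and 2.96 on the E14.5 pair, again without overlap between stages. Stage means were 6.55 ± 0.30 (SD, n = 2), 5.47 ± 0.32 and 3.69 ± 1.04. Neither daily step passed the test, at -1.08 (SE 0.47, limma, adjusted p = 0.126) and -1.78 (SE 0.47, limma, adjusted p = 0.151). From E12.5 to E14.5 it fell by 2.86 (SE 0.47), which is 7.26-fold (limma, adjusted p = 0.00551). Without the second E14.5 array the changes were -2.13 over both days (limma, adjusted p = 0.00851) and -1.04 over the second day (limma, adjusted p = 0.335).

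Hba-x encodes the zeta chain, the embryonic alpha-type globin. Its level was 3.81 and 4.21 on the E12.5 arrays, 3.22 and 2.74 on the E13.5 pair and 2.36 and 1.45 on the E14.5 pair. The stages were apart, with means of 4.01 ± 0.28 (SD, n = 2), 2.98 ± 0.34 and 1.90 ± 0.65. The daily changes were -1.03 (limma, adjusted p = 0.0626) and -1.08 (limma, adjusted p = 0.195). Over both days Hba-x fell by 2.10 (SE 0.33), a 4.29-fold decrease (limma, adjusted p = 0.00504). Without the second E14.5 array the changes were -1.64 (limma, adjusted p = 0.0153) and, over the second day, -0.62 (limma, adjusted p = 0.56). For each of the 3 embryonic globins the call over both days held in all 16 alternatives tested. The first daily step of Hbb-y and Hba-x was called in some of them, 4 and 6 of 16. These 16 are not all separate, since leaving out either array of the stage not compared gives the fit of only the 4 arrays compared.

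Hba-a1 encodes adult-type alpha globin. Its probe may also read the near-identical copy Hba-a2, which had no probe of its own by accession, so the copies are reported as 1 signal. The level was 6.61 and 6.79 on the E12.5 arrays, 7.18 and 7.03 on the E13.5 pair and 7.01 and 7.38 on the E14.5 pair. Both E12.5 arrays lay below the 4 later ones, while E13.5 and E14.5 overlapped. The rise from E12.5 to E14.5 was 0.49 (SE 0.16), or 1.41-fold (limma, adjusted p = 0.0474). This call stood at the edge of the threshold and was lost in 11 of 16 alternatives, among them median scaling (limma, 0.33, adjusted p = 0.182). Over these alternatives the change ran from 0.31 to 0.68, with limma adjusted p from 0.0136 to 0.194, and leaving out any array but the first E14.5 one ended the call, at 0.31 without the second E14.5 array (limma, adjusted p = 0.194). The daily changes were 0.40 (limma, adjusted p = 0.102) and 0.09 (limma, adjusted p = 0.799).

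Hbb-bt, a beta chain of adult haemoglobin and no member of the set of 8, gives the beta side of the adult type. It had 4 probes, which may also read other near-identical adult beta copies of other mouse haplotypes. Its brightest probe gave 5.89 and 6.55 on the E12.5 arrays, 6.92 and 6.90 on the E13.5 pair and 7.07 and 7.47 on the E14.5 pair, with no overlap between stages. It rose by 1.05 (SE 0.24) from E12.5 to E14.5, which is 2.07-fold (limma, adjusted p = 0.0164), and without the second E14.5 array by 0.85, where the call was lost (limma, adjusted p = 0.0778). Another 2 of its probes rose by 1.01 and 1.10, while the probe A_51_P374468 rose by 2.98, from 1.93 and 2.84 to 4.68 and 6.05 (limma on single probes, adjusted p = 0.0084). The 4 probes shared a direction and differed in size.

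**Figure D2:**
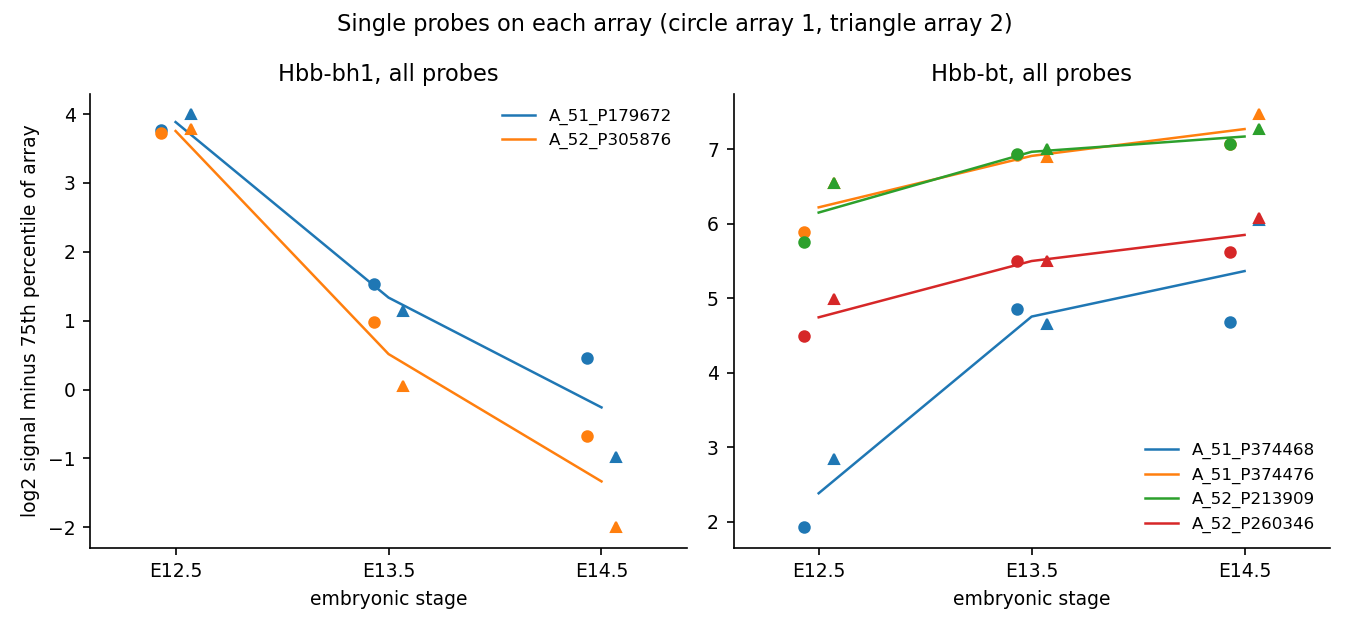
Level of every probe of Hbb-bh1 (left) and Hbb-bt (right), as log2 signal minus the array's 75th percentile, against stage. Circles and triangles are the 2 arrays of a stage and lines join stage means. From E12.5 to E14.5 both Hbb-bh1 probes change downwards, by -4.15 and -5.09, and all 4 Hbb-bt probes upwards, by between 1.01 and 2.98.

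The theta globins Hbq1a and Hbq1b belong to the alpha cluster and were dim here. Hbq1a gave -5.02 and -4.93 on the E12.5 arrays, -5.50 and -6.12 on the E13.5 pair and -5.10 and -5.15 on the E14.5 pair. It fell by 0.84 on the first day (limma, adjusted p = 0.0287), a change that was -0.07 with normexp background correction (limma, adjusted p = 0.655). That call was past the threshold in 9 of 16 alternatives and ended without either E12.5 array or without the second E13.5 array, where it was -0.53. From E12.5 to E14.5 Hbq1a changed by -0.16 (limma, adjusted p = 0.555). Hbq1b lay between -4.45 and -3.59 on all arrays and fell by 0.61 from E12.5 to E14.5 (limma, adjusted p = 0.0426), a call lost in 9 of 16 alternatives.

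The embryonic and adult-type globins were then set against each other within each array, where the scaling of arrays cancels. The size of such a difference depends on the probes, so only its change between stages is read. The mean of the 3 embryonic globins minus Hba-a1 was -1.97 and -1.80 on the E12.5 arrays, -3.70 and -3.99 on the E13.5 arrays and -4.59 and -6.24 on the E14.5 arrays. The stages did not overlap, and the second E14.5 array stood lowest.

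From E12.5 to E13.5 this difference changed by -1.96, so embryonic relative to adult-type alpha globin signal dropped 3.88-fold. From E13.5 to E14.5 it changed by a further -1.57, a 2.97-fold drop on arrays of the same slide. Over both days the change was -3.53, or 11.5-fold. With 2 arrays a stage the exact two-sided permutation test over arrays gave p = 0.333 for each step, the smallest it can give. Leaving out 1 array of the stages compared gave -4.35 to -2.70 for E14.5 against E12.5, and -2.40 to -0.75 for E14.5 against E13.5. The ends nearest to 0 were those without the second E14.5 array.

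By single genes, relative to Hba-a1, Hbb-bh1 changed by -4.64 from E12.5 to E14.5, Hbb-y by -3.35 and Hba-x by -2.59. On the first day Hbb-bh1 changed by -2.95, and Hbb-y and Hba-x by -1.49 and -1.43. On the second day the changes were -1.68, -1.87 and -1.17. The differences between the 3 genes were not tested. With Hbb-bt in place of Hba-a1 the mean of the 3 embryonic globins changed by -2.24, -1.84 and -4.08 over the first day, the second day and both. Against the dim theta globins the change was smaller on the first day, at -0.72 (Hbq1a) and -1.13 (Hbq1b), and over both days at -2.43 (Hbq1b). It was not smaller against Hbq1a on the second day, when Hbq1a changed by 0.68 and Hba-a1 by 0.09.

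**Figure D3:**
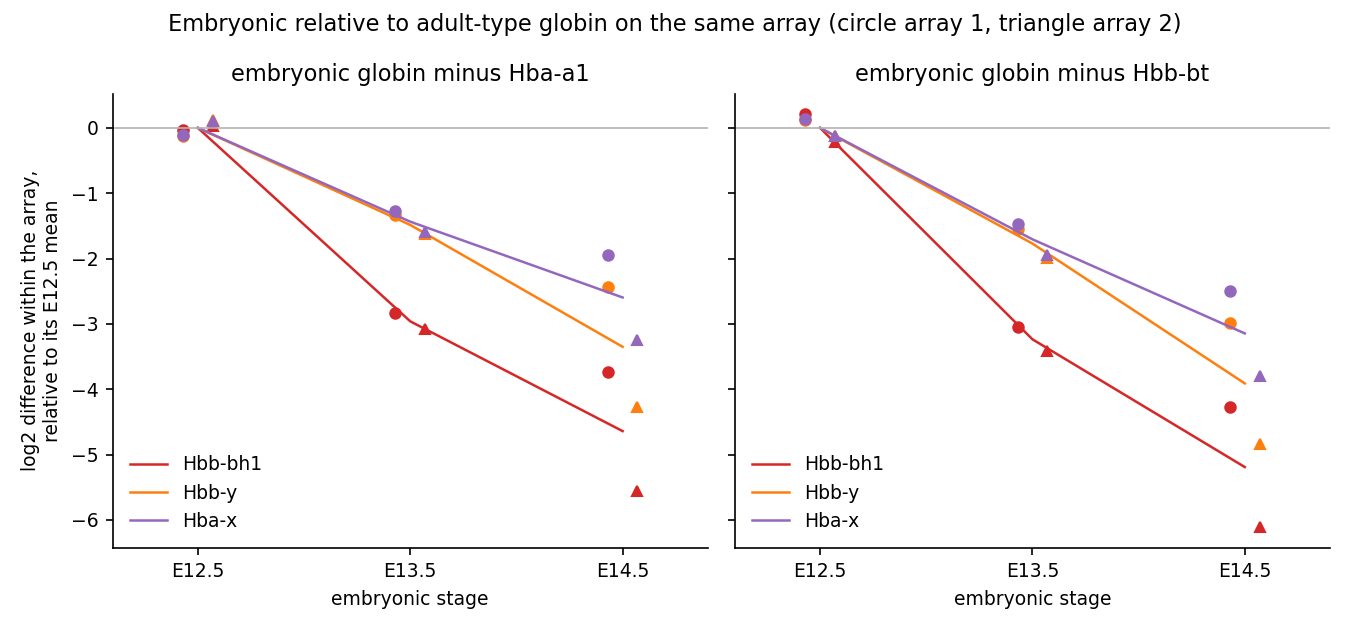
Difference between each embryonic globin and an adult-type globin on the same array (Hba-a1 left, Hbb-bt right), in log2 units relative to the mean difference at E12.5, against stage. Circles and triangles are the 2 arrays of a stage and lines join stage means. Relative to Hba-a1, the E14.5 means lie at -4.64 for Hbb-bh1, -3.35 for Hbb-y and -2.59 for Hba-x, and the second E14.5 array lies below the first for all 3.

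Klf1 is a zinc finger factor of red cell precursors that activates adult beta globin and many other erythroid genes. Its level was -0.47 and -0.59 on the E12.5 arrays, -2.13 and -2.88 on the E13.5 pair and -2.80 and -3.65 on the E14.5 pair. The E12.5 arrays lay above all others, while E13.5 and E14.5 overlapped. It fell by 1.98 (SE 0.35) on the first day, 3.94-fold (limma, adjusted p = 0.011), and leaving out the first E12.5 array ended this call (limma, -1.92, adjusted p = 0.0558). The second day gave -0.72 (limma, adjusted p = 0.33). From E12.5 to E14.5 Klf1 fell by 2.70 (SE 0.35), or 6.48-fold (limma, adjusted p = 0.00259), in all 16 alternatives past the threshold.

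Gata1 is the GATA factor that red cells and megakaryocytes need, and it is also known from Sertoli cells of the testis. Its level was -4.23 and -4.34 on the E12.5 arrays, -4.47 and -4.74 on the E13.5 pair and -4.46 and -4.17 on the E14.5 pair, low but well above background on each array. No step passed the test. The change from E12.5 to E14.5 was -0.03, with a 95% confidence interval of -0.40 to 0.35 (limma, adjusted p = 0.895), so a fall of the size of that of Klf1 lies outside the interval.

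Alas2 is the erythroid enzyme of the first step of haem synthesis. Its level was 1.23 and 1.35 on the E12.5 arrays, 1.70 and 1.41 on the E13.5 pair and 1.55 and 2.27 on the E14.5 pair. Both E12.5 arrays lay below the 4 later ones, and the second E14.5 array stood highest. The change from E12.5 to E14.5 was 0.62 (SE 0.25, 95% confidence interval 0.02 to 1.22) and missed the threshold (limma, adjusted p = 0.0831). It passed with normexp background correction (limma, 0.54, adjusted p = 0.0461) and without the first E14.5 array (limma, 0.98, adjusted p = 0.0151), and in none of the other 14 of 16 alternatives. Without the second E14.5 array it was 0.26 (limma, adjusted p = 0.301).

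Epor is the receptor through which erythropoietin keeps red cell precursors alive, and its RNA is also known from tissues outside blood. Its level was -1.13 and -1.30 on the E12.5 arrays, -1.25 and -1.36 on the E13.5 pair and -1.27 and -1.44 on the E14.5 pair. All 6 arrays lay within this narrow band and the stages overlapped. The change from E12.5 to E14.5 was -0.15 with a 95% confidence interval of -0.45 to 0.16 (limma, adjusted p = 0.365). Its ligand Epo was well above background on none of the 6 arrays.

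On the second E14.5 array Hbb-bh1, Hbb-y, Hba-x and Klf1 were lower than on the first, by 1.45, 1.47, 0.92 and 0.85. Hba-a1, Hbb-bt and Alas2 were higher there, by 0.37, 0.4 and 0.71. In size these gaps exceeded the second day's change for Klf1 (-0.72), Hba-a1 (0.09), Hbb-bt (0.36) and Alas2 (0.35). They exceeded the first day's change for Hbb-y (-1.08) and Alas2 (0.27), and for Alas2 also that over both days (0.62). For these genes the 2 E14.5 arrays differed in the same sense as the stages did, but other genes reported below did not share this. Tfr2, which rose from E12.5 to E14.5, gave -3.20 on the first E14.5 array and -3.53 on the second. Uros and Abcb10, which fell, gave -1.50 and -1.51 on the first and -1.38 and -1.31 on the second.

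**Figure D4:**
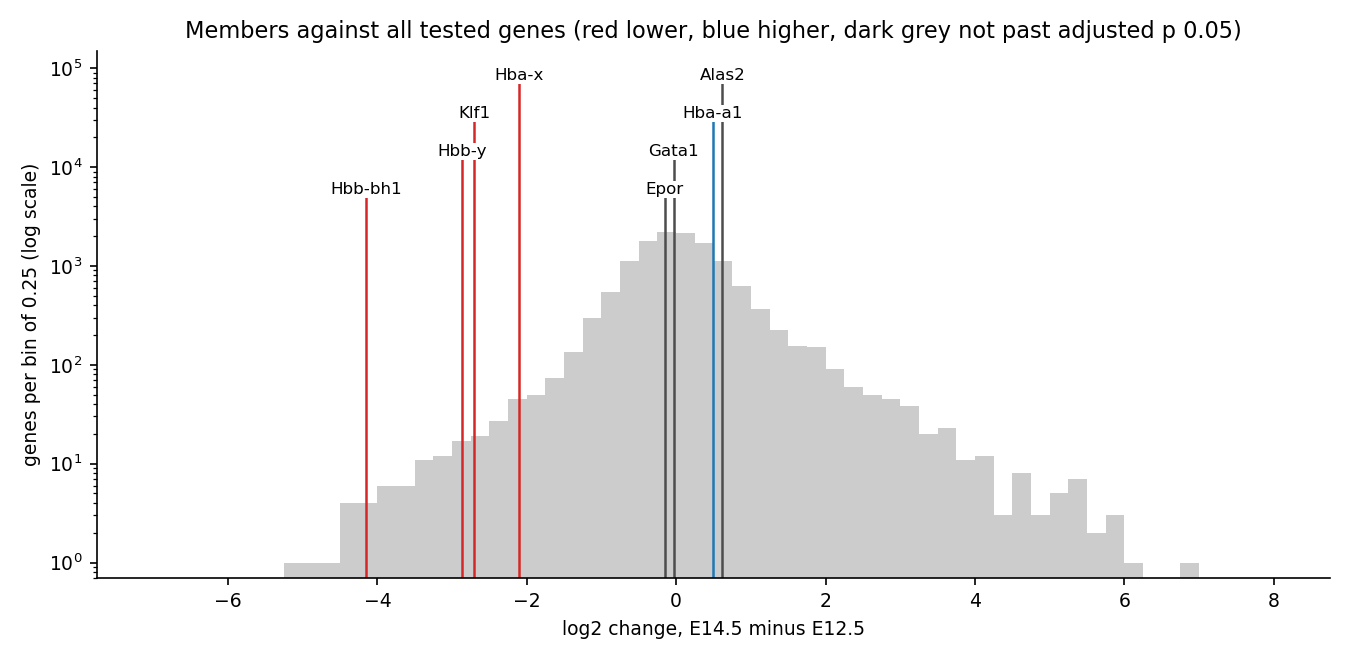
Histogram of the log2 change from E12.5 to E14.5 (horizontal axis) over all 13270 genes tested (grey bars, number of genes on a log axis), with the 8 genes as vertical lines. Lines in red are called lower, in blue higher, and in dark grey not past limma's adjusted p of 0.05. Hbb-bh1 at -4.15 lies near the far end of the falls and Hbb-y, Klf1 and Hba-x lie in the thin lower tail, while Epor, Gata1, Hba-a1 and Alas2 lie in the bulk.

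Around the 8 genes, 8 lists of erythroid genes by role held 78 genes, of which 66 were tested. Which cells of the gonad gave these signals was not measured. From E12.5 to E14.5, 28 of the 66 were called lower (42.4%, against 20.8% of all genes tested) and 9 higher (13.6%, against 25.5%), and 29 did not pass. Their median change was -0.26, beside 0.03 over all genes. Without the 8 members the counts were 24 lower and 8 higher of 58, with the same median. Each gene is counted by its brightest probe. With single probes tested, dimmer probes of some genes that did not pass were called. They were higher for Zbtb7a (1.60), Stat5b (0.78), Epb41 (0.77), Ank1 (0.67) and Fech (0.59), and lower for Bnip3l (-0.93). On the first day 19 of 66 were called lower (28.8%, against 13.3% of all genes) and 4 higher (6.06%, against 18.4%), and on the second day none was called in either direction by limma, against 0.0528% of all genes. Leaving out 1 array at a time gave 20 to 26 lower and 5 to 9 higher from E12.5 to E14.5, with the 5 reached without the second E14.5 array. For the first day it gave 12 to 21 lower and 0 to 1 higher, with the 12 reached without the second E13.5 array.

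Among 14 erythroid transcription factors, 7 were called lower (against 20.8% of all genes) and 1 higher (7.14%, against 25.5%). Tal1, the partner of Gata1 in its complex, fell by 1.52 (SE 0.15, limma, adjusted p = 0.0012), from -0.02 and -0.32 to -1.60 and -1.78. Gfi1b, a repressor of late red cell precursors, fell by 1.37 (SE 0.27), which was 0.38 with normexp background correction. Sox6, a repressor of embryonic globin genes in definitive red cells, fell by 1.30 (SE 0.16) on its brightest probe and by 1.38 on another, and changed by -0.47 and -0.42 on 2 dimmer probes that did not pass. Myb, a factor of early progenitors, was well above background on no E14.5 array and was at least 1.7-fold lower than at E12.5, a call lost in several alternatives (limma, -0.07 and adjusted p = 0.649 with normexp). Zfpm1, the cofactor of Gata1, was the gene called higher, by 0.67 (SE 0.12, limma, adjusted p = 0.00675), named here because it made up that count.

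Of 11 haem synthesis genes, 5 were called lower (45.5%, against 20.8% of all genes) and none higher (against 25.5%). With 1 array left out, 2 to 4 were lower and 0 to 1 higher, with 2 lower without the first E12.5 or the second E14.5 array, 3 without the second E12.5 or the first E14.5 array, and 1 higher without the first E14.5 array. Abcb10, a transporter of the mitochondrial inner membrane, fell by 0.80 (SE 0.12), and the enzymes Uros and Cpox by 0.70 and 0.57. Leaving out the first E12.5 or the second E14.5 array ended the call of Cpox. Of the 6 genes that did not pass, Alas2 (0.62), Tspo2 (0.31), Alad (0.29), Ppox (0.25) and Fech (0.11) had positive values and Urod a negative one. A second, dimmer Fech probe rose by 0.59 when single probes were tested (limma, adjusted p = 0.0291).

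The iron genes moved in both directions, with 2 higher and 1 lower of 4, beside 25.5% and 20.8% of all genes, and with 1 array left out 1 to 2 were higher. Tfr2, a transferrin receptor that senses iron, rose by 1.31 (SE 0.15) and the mitochondrial iron importer Slc25a37 by 0.93 (SE 0.23), but a second Slc25a37 probe fell by 0.43 and the mean of its probes gave 0.25, not called (limma, adjusted p = 0.172). The Slc25a37 call was also lost without the first E12.5 or the second E14.5 array. Tfrc, which takes transferrin iron into red cell precursors, fell by 0.83 (SE 0.14). In erythropoietin signalling 1 gene was higher and 1 lower of 7 (14.3% each, beside 25.5% and 20.8% of all genes), and with 1 array left out 0 to 2 were higher and 0 to 1 lower. Stat5a, which the receptor activates, rose by 0.43 (SE 0.11), and was 0.27 and not called with median scaling (limma, adjusted p = 0.152). Its call also ended without the second E12.5 array or without either E14.5 array. The kinase Pim1 fell by 0.70 (SE 0.20), which did not pass once the second E12.5 or the second E14.5 array was left out.

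Of 15 genes of the red cell membrane and its skeleton, 7 were called lower (46.7%, against 20.8% of all genes) and 1 higher (6.67%, against 25.5%). Ermap, a blood group protein of the erythroid membrane, fell by 2.06 (SE 0.29), from -3.32 and -3.27 to -5.32 and -5.39, and with normexp background correction by 0.67. Rhag, of the Rh complex, fell by 1.65 (SE 0.29), and Kel, the Kell blood group protein, by 1.57 (SE 0.18). Rhag was dim after E12.5, and its change was -0.24 with normexp background correction, no longer called. The gene called higher was Sptb, a beta spectrin, at 1.39 (SE 0.18), named for the same reason as Zfpm1.

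Among 8 genes of red cell maturation, 3 were called lower and 2 higher, beside 20.8% and 25.5% of all genes, and with 1 array left out 2 were lower and 1 to 2 higher. Car2, a carbonic anhydrase found in many tissues, fell by 1.14 (SE 0.12), and Rundc3a by 0.78 (SE 0.11). Car1, the other carbonic anhydrase of red cells, rose by 0.62 (SE 0.11). Blvrb, a biliverdin reductase, rose by 0.45 (SE 0.15), which was 0.29 and not called with median scaling (limma, adjusted p = 0.189) and was past the threshold in 7 of 16 alternatives. In these lists the changes of Ermap, Rhag and Kel on the first day were -2.52, -2.29 and -1.60, at least as large as those over both days. Ermap and Rhag were well above background on 1 of the 2 E13.5 arrays, and with normexp background correction these values were -0.78, -0.46 and -1.18.

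**Figure D5:**
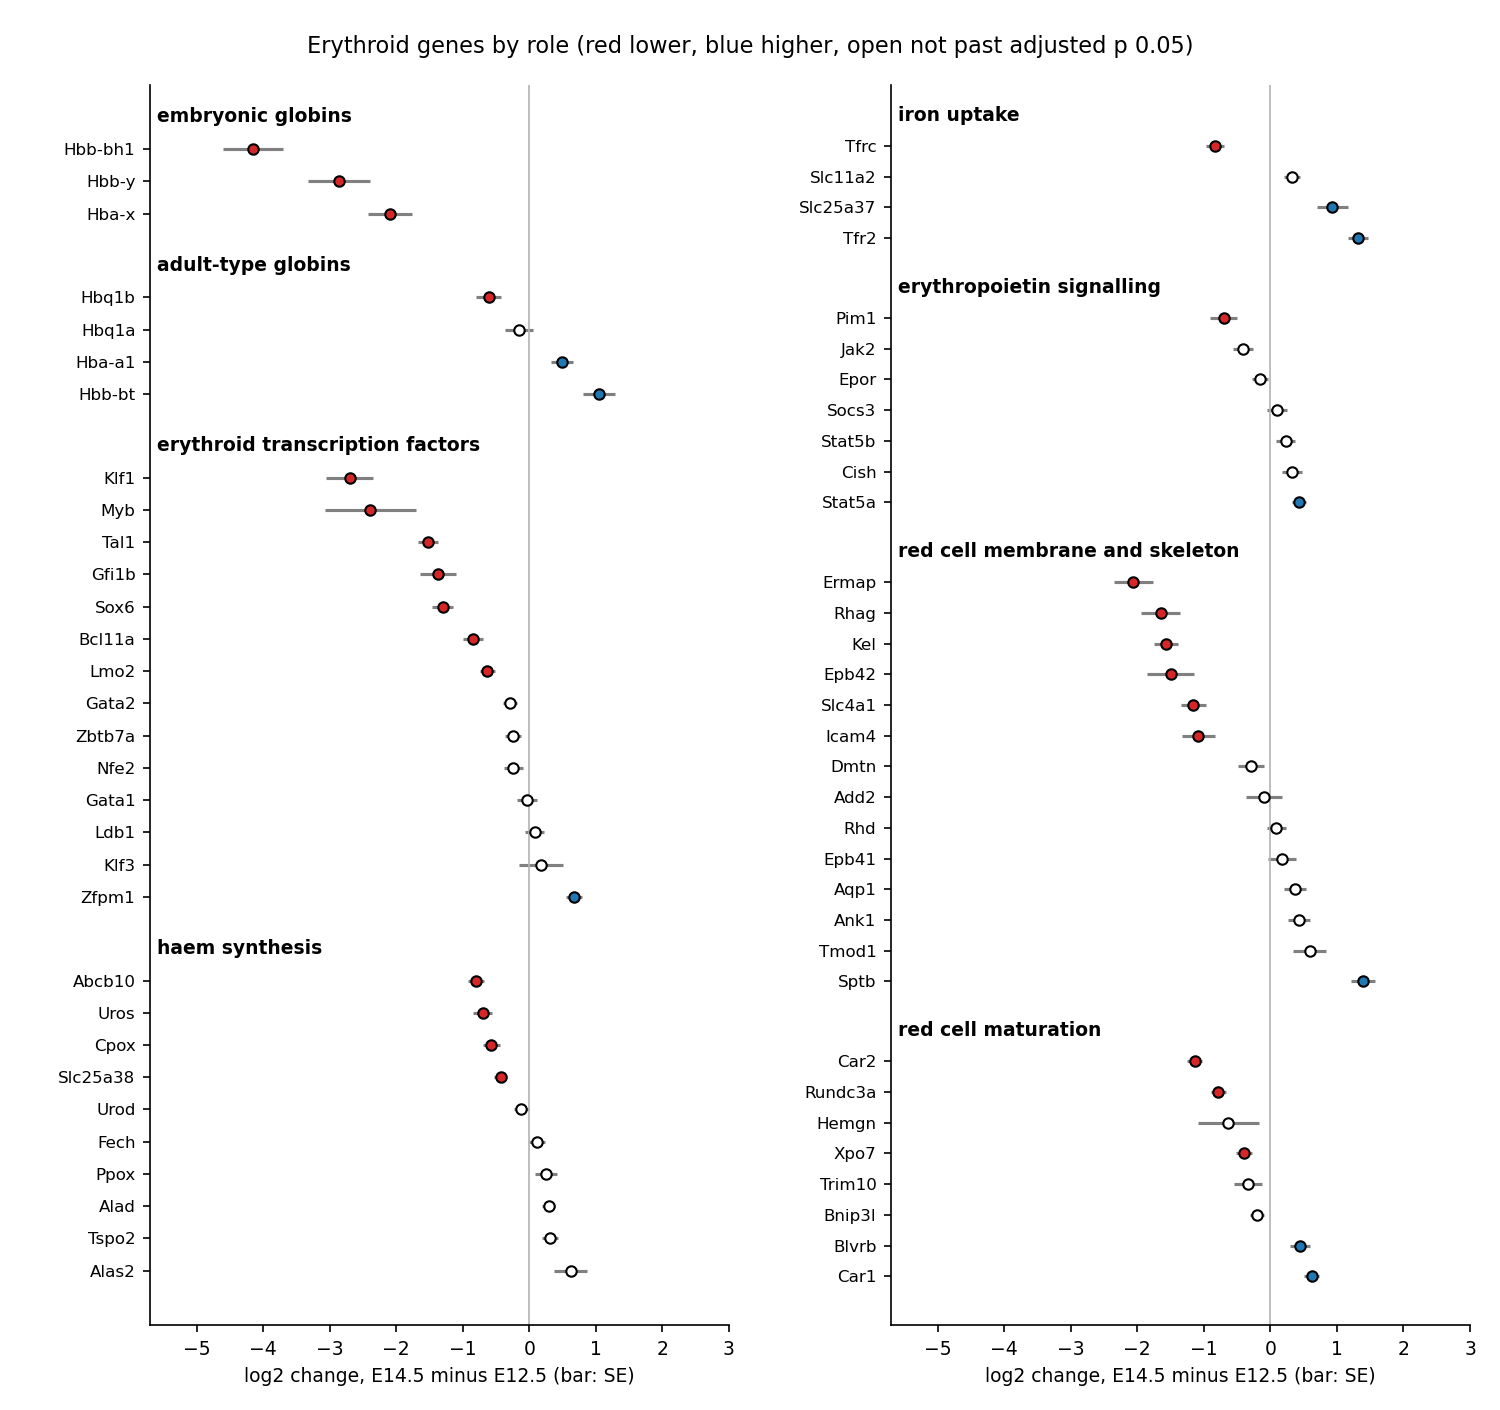
Log2 change from E12.5 to E14.5 (horizontal axis, bars are the standard error from limma) of the erythroid genes tested and reported here, grouped by role. Red points are called lower, blue higher, and open points did not pass limma's adjusted p of 0.05. Hbb-bh1 lies farthest left at -4.15, and Sptb, at 1.39, farthest right. The point of Myb is its fitted value, and what was measured for it is a bound, at least 1.7-fold lower.

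Markers of other cell types moved over the same days, and their part in the results above was not tested. Summed linear signals are given as multiples of the array's 75th percentile signal. For the 3 embryonic globins the sum was 109 to 143 at E12.5, 46.7 to 63.9 at E13.5 and 11 to 28.0 at E14.5, and for the 4 adult-type globins 157 to 205, 250 to 266 and 263 to 343. The counts below are from E12.5 to E14.5, where 20.8% of all genes were called lower and 25.5% higher, and with lists this short several lie near those shares. Of 9 platelet and megakaryocyte genes, led in signal by Pf4 and Itgb3, 4 were called lower and 1 higher from E12.5 to E14.5, with a median change of -1.12, and their sum went from 2.61 to 3.53 at E12.5 to between 1.87 and 1.90 at E14.5. Of 12 endothelial genes, led by Egfl7 and Emcn, 4 were called lower and 1 higher, and the sum was 32.3 to 33.9 at E12.5 and 29.4 to 30.6 at E14.5. Of 10 macrophage genes, led by Lyz2 and C1qc, 6 were called higher and none lower, and the sum was 2.69 to 3.08 at E12.5 and 5.15 to 5.53 at E14.5.

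Mast cell markers were mixed, with 2 higher and 1 lower of 4 tested, brightest Hdc and Kit, and a sum of 4.25 to 4.45 at E12.5 and 3.58 to 3.96 at E14.5. The mast cell genes Ms4a2, Mcpt4 and Tpsb2 were well above background on none of the 6 arrays. Of 10 Sertoli genes, brightest Cst9 and Dhh, 1 was higher and 3 lower, with a sum of 130 to 151 at E12.5 and 174 to 181 at E14.5. Of 10 germ cell genes, brightest Stra8 and Dppa3, 6 were higher and 1 lower, with a sum of 55.2 to 69.9 at E12.5 and 189 to 219 at E14.5. Of 8 fetal Leydig cell genes, brightest Hsd3b1 and Insl3, 7 were higher and none lower, and the sum went from between 6.70 and 7.88 to between 109 and 147. 

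The genes whose profile over the 6 arrays was nearest to that of a member were ranked by the root mean square difference of the centred log2 values, a description over 6 arrays. Hbb-bh1 was nearest to Uox (0.20), Scgn (0.30), Tdh (0.30), Tfap2c (0.37) and Mogat2 (0.39), and 9 genes lay within 0.5. Of these, Uox was well above background on 3 arrays and Scgn on 4. Klf1 was nearest to Gfra1 and Aqp3 (0.15 each), then 1700019D03Rik, Mall and Zan (0.20 each), and 102 genes lay within 0.5. Hba-a1, which moved little, had 10269 genes within 0.5, nearest Agpat5 (0.04), Crat, Atg4a, Atp11a and Rab3gap1 (0.06 each). Among the members, Hbb-y and Hba-x lay 0.38 apart, Hba-x and Klf1 0.43, and Hbb-bh1 and Hbb-y 0.66, while Hba-a1 and Alas2 lay 0.15 apart and Hbb-bh1 and Hba-a1 1.99.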

How the data were processed

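RNA of the 3 samples (6 arrays) was measured as Cy3 intensity on 1-colour arrays. Per the file headers, the deposited intensity is the spot signal after background subtraction and spatial detrending by Agilent Feature Extraction (version 9.5 in the submitters' processing notes), with no scaling between arrays. The deposited outlier, saturation and above-background flags were used. The authors' deposited table gives a linear ratio for each probe at each stage, relative to something it does not name. Over 25605 probes above background its log2 differences had a correlation across probes of 1.0 with the scanner files, its column medians were 0.963, 1.04 and 1.01, and its centring is unknown.

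Outlier spots were left out, repeated spots averaged, signals log2-transformed and each array's 75th percentile subtracted. RefSeq accessions named 22943 of 41174 probes, of 16354 genes. The brightest probe stood for a gene, and a gene was tested if some stage showed it well above background on both its arrays. Where neither array of the dimmer stage showed a gene above background, its fold is a lower bound against the lowest signal called above background there. limma 3.58.1 (R 4.3.3; lmFit, eBayes without trend; 3 residual and 3.01 prior degrees of freedom) compared stages, two-sided, with Benjamini-Hochberg adjustment over 13270 genes; the code was tested on simulated data. The series calls the arrays biological duplicates without saying whether they came from separate embryos or pools, so p-values measure only the spread between these arrays, whose number limits precision.

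The members, lists and tests were chosen with earlier results of these data known. Named were the 8 members, all tested globins, up to 4 further genes of each other erythroid list with the largest called change from E12.5 to E14.5, the 2 brightest genes of each other list, the 5 nearest profiles of Hbb-bh1, Klf1 and Hba-a1, and Cyp26b1. Some genes that this rule selects are not reported here, but counts over lists include them. Alternatives were normexp (offset 50, on spot medians), median and quantile scaling, other filters and probe choices, another variance prior, a replicate block, only the 4 arrays compared, each array left out and the authors' ratios. Promoter sequences are from RefSeq. Figures used matplotlib 3.10.9.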

Additional observations from a re-analysis of the deposited data

How the results depend on the processing

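The calls from E12.5 to E14.5 for Hbb-bh1, Hbb-y, Hba-x and Klf1 were kept in all 16 alternatives with a test, and no member reversed a called direction. Normexp background correction brought past the threshold Hbb-bh1 (-1.50) and Hbb-y (-1.75) for E14.5 against E13.5, Hbb-y (-1.04), Hba-x (-1.01) and Hba-a1 (0.44) for E13.5 against E12.5, and Alas2 (0.54) for E14.5 against E12.5. For E13.5 against E12.5, Hbb-y (-1.08) and Hba-x (-1.03) also passed with only the 4 arrays compared, and Hba-x with the filter of all 6 arrays (-1.03) and with median scaling (-1.11). Hba-a1 for E14.5 against E12.5 lost its call with all single probes, no filter or only 4 arrays (0.49 each), median scaling (0.33) and quantile scaling (0.52). The cause was not tested, beyond the fewer arrays or more probes of some settings.

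Array numbers were not taken to pair the arrays. The correlations across genes of same-number deviations were -0.0371 (E12.5 and E13.5), -0.0632 (E12.5 and E14.5) and 0.227 (E13.5 and E14.5, on 1 slide), so only the last was positive. With the replicate block, Hba-a1 was 0.49 (limma, adjusted p = 0.0611) and no longer called, 0 erythroid genes were called higher for E13.5 against E12.5, 3732, 1 and 5738 genes were called in the 3 comparisons beside 4204, 7 and 6146, and no other member's call changed.

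Leaving out each array gave, for E13.5 against E12.5, -2.75 to -2.36 for Hbb-bh1, -1.31 to -0.86 for Hbb-y, -1.27 to -0.78 for Hba-x and -2.36 to -1.60 for Klf1. For E14.5 against E12.5 it gave 0.31 to 0.68 for Hba-a1 and 0.26 to 0.98 for Alas2. The authors' deposited table gave Epor -0.17 for E14.5 against E13.5, beside -0.05 here. In that comparison the table's values were shifted by a median of -0.11 over 25605 probes, with 100% within 0.05 of that shift. The difference for Epor is therefore not particular to this gene.

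Erythroid genes called higher for E13.5 against E12.5 numbered 4, and 0 with all single probes, median scaling or no filter, 1 with 4 arrays, 2 with quantile scaling and 9 with normexp, and 0 to 1 with an array left out. Those called lower numbered 19, and 12 to 21 with an array left out. For E14.5 against E12.5 those called higher numbered 9, and 5 to 9 with an array left out. For E14.5 against E13.5, where none was called, median scaling called 1 higher, normexp 2 higher and 3 lower, and the trended prior 2 higher and 1 lower.

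All genes called for E14.5 against E13.5 numbered 7, and 383 with normexp, 346 with the trended prior, 92 with median scaling, 5 with quantile scaling and 0 to 42 with an array left out. The embryonic globins changed relative to Hbq1a by -0.72, and relative to Hbq1b by -1.13, for E13.5 against E12.5, and relative to Hbq1b by -2.43 for E14.5 against E12.5, and Hbq1a and Hbq1b are dim. With an array left out the change relative to Hba-a1 was -2.10 to -1.81, -2.40 to -0.75 and -4.35 to -2.70 in the 3 comparisons.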

Other observations

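The genes beside the globin clusters in the RefSeq gene order were looked at after the globin values were seen. On the alpha side, Nprl3, whose introns are known to hold enhancers of alpha globin, changed by 0.40 (SE 0.19) from E12.5 to E14.5 (limma, adjusted p = 0.134). Its neighbours Mpg and Rhbdf1 changed by -0.04 (limma, adjusted p = 0.86) and 0.38 (limma, adjusted p = 0.0729). On the other side of the cluster Sh3pxd2b changed by -0.07 and Ubtd2 by 0.35, neither past the threshold, while Efcab9 rose by 1.38 (SE 0.14, limma, adjusted p = 0.00141). Of these 6 neighbours none was called lower and 1 higher, beside 20.8% and 25.5% of all genes. Of 6 olfactory receptor genes beside the beta cluster, Olfr609 and Olfr635, which exceeded background on each of the 6 arrays, were called lower, by 0.53 (limma, adjusted p = 0.0103) and 0.70 (limma, adjusted p = 0.0145). Olfr642 was also called lower but exceeded background on 2 arrays only, so no size is given for it, and Olfr611, Olfr615 and Olfr638 did not pass. Counts over 6 genes are too small to set the clusters apart.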
